A study of Mus musculus with 8 samples.

Results

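The tricarboxylic acid (TCA) cycle enzymes described here were 9 genes of the mitochondrial matrix cycle, namely Cs, Idh3a, Idh3b, Idh3g, Ogdh, Dlst, Suclg1, Fh1 and Mdh2. They were chosen by gene symbol from the 22274 genes of the deposited RNA-seq table, with earlier results of these data known. All 9 passed the filter on low counts, as did 13533 genes in all. The libraries were made from primary cardiac fibroblasts of the mouse, which lay down the collagen of heart tissue, grown in culture with the cytokine TGF-β, a driver of the contractile myofibroblast state. TGF-β was given at 5 ng/ml for 24 h, a dose and time that the labels do not give and that were taken from the paper. There were 4 libraries labelled GFP, which stand for cells that received an empty virus, and 4 libraries labelled OEIRF7, which stand for cells made to overexpress the transcription factor IRF7. All 8 libraries came from cells treated with virus and with TGF-β, so cells without either were not part of the comparison. Strain, age and sex of the mice are not given in the labels, nor do they say whether replicates were separate cultures. The number of biological replicates that the paper gives for its experiments of this set is smaller than the number of libraries deposited per group. The p-values therefore measure only the spread between these libraries, which may be technical.

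The targeted gene did not follow the labels. Mouse Irf7 had 2272 to 3680 counts in the libraries labelled GFP and 380 to 421 counts in the libraries labelled OEIRF7, a log2 difference of -2.96 (SE 0.121, edgeR adjusted p = 7.7e-11). The study's reagent list names an adenovirus with human IRF7 and the deposited description names an adeno-associated virus. Reads of a human transgene need not be counted on the mouse gene, so a rise of the transgene need not show. The cause of the lower mouse Irf7 was not tested, and mouse Irf7 alone cannot show whether the labels are right. Each direction below is that of the libraries labelled OEIRF7 against the libraries labelled GFP, and depends on the labels. Total counts lay between 24454801 and 28658826 per library, and every pair of replicates of a group differed by more than sampling noise. Of the fibroblast markers 10 of 10 were measured, with summed levels of 14500 to 15000 CPM (counts scaled to the size of the library) in the libraries labelled GFP and 13400 to 14600 CPM in those labelled OEIRF7. Of 12 cardiomyocyte markers 11 were under 1 CPM and Ckmt2 had no count in any library. The marker that was tested, Tnnt2, fell from 11.3 to 7.78 CPM (0.686-fold, edgeR adjusted p = 0.00057), and its part in the values of the TCA cycle enzymes was not tested.

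The TCA cycle oxidises the acetyl group of acetyl-CoA to carbon dioxide in the mitochondrial matrix and hands the electrons to the respiratory chain as NADH and FADH2. Citrate synthase opens the cycle, isocitrate dehydrogenase and the 2-oxoglutarate dehydrogenase complex carry out its oxidative decarboxylations, succinyl-CoA synthetase makes a nucleoside triphosphate, and succinate dehydrogenase, fumarase and malate dehydrogenase restore oxaloacetate. In fibroblasts its intermediates also leave the cycle for the synthesis of lipids and amino acids, among them those used for collagen.

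Small differences of both signs were found. Of the 9 enzymes 5 were higher in the libraries labelled OEIRF7 (Cs, Idh3a, Idh3b, Suclg1 and Mdh2), 1 was lower (Idh3g), and 3 did not pass the test (Ogdh, Dlst and Fh1), at an adjusted p under 0.05 in edgeR's quasi-likelihood test. Among all genes tested, 58.9% passed, 29.0% as higher and 29.9% as lower. The size of the log2 difference ran from 0.0073 for Ogdh to 0.19 for Idh3a, with a median size of 0.12, while the median size over all 13533 genes was 0.25. The signed median was 0.09 over the 9 enzymes and 0.0015 over all genes. None of the 9 passed the fold threshold of the study's methods, which 19.0% of all genes passed. It asks for an unadjusted p under 0.05, here in edgeR, with a fold over 1.5 or under 0.66. DESeq2 and limma also placed 0 of the 9 past that threshold. An unadjusted p under 0.05 in edgeR was reached by 7 of the 9, and by 8513 of all 13533 genes. The CPM values of the groups did not overlap for 7 of the 9 enzymes, and for 53.8% of all genes. RNA of a whole culture was measured, in which fewer cells of a kind and less RNA per cell cannot be told apart.

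**Figure D1:**
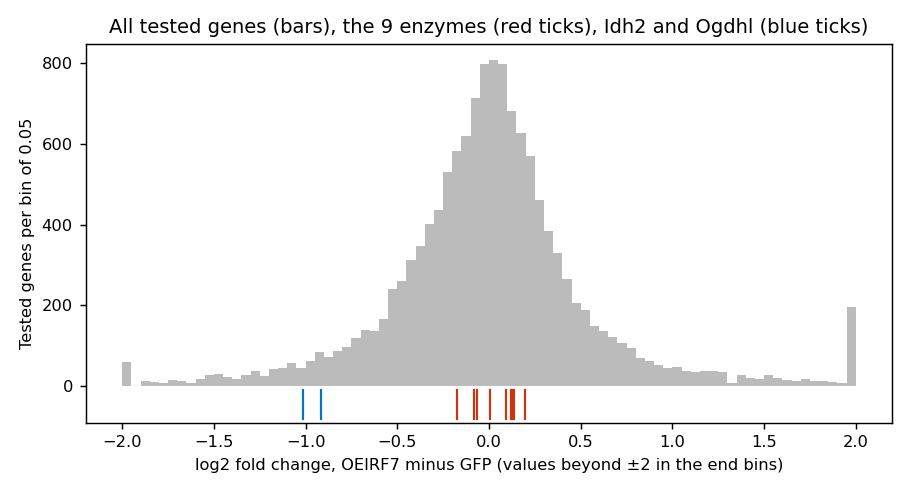
Histogram of log2 differences (OEIRF7 minus GFP, x axis) for all 13533 tested genes (y axis, number of genes), with the 9 TCA cycle enzymes as red ticks and Idh2 and Ogdhl, of the other TCA list, as blue ticks. The enzymes lie between -0.17 and 0.19, in the central part of a distribution whose median size is 0.25.

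Levels per length, as the deposited FPKM, differed more between the enzymes than between the groups. Mdh2, the mitochondrial malate dehydrogenase, was the most abundant, with a mean of 184 ± 5.61 FPKM (SD, n = 4) in the libraries labelled GFP and 204 ± 5.11 FPKM in those labelled OEIRF7. Fh1, fumarase, was the least abundant, with 16.8 ± 1.24 FPKM and 16.2 ± 1.33 FPKM. By the mean over all 8 libraries the order was Mdh2, Cs, Dlst, Ogdh, Idh3b, Idh3a, Idh3g, Suclg1 and Fh1. The ranges of neighbours were apart for Mdh2 and Cs, for Cs and Dlst, and for Suclg1 and Fh1, and overlapped for all other neighbours. Within libraries Dlst stood above Ogdh in 3 of 4 labelled GFP and 1 of 4 labelled OEIRF7, and Ogdh above Idh3b in 4 and 1. Idh3g stood above Suclg1 in 4 of 4 libraries labelled GFP and in 0 of 4 labelled OEIRF7, so these neighbours changed places.

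**Figure D2:**
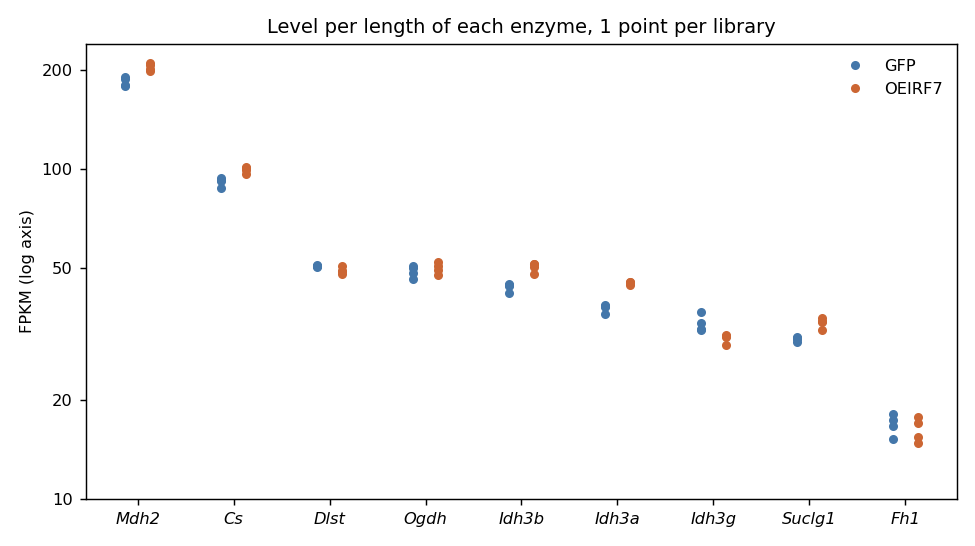
FPKM of each enzyme on a log axis, with 1 point per library and the groups side by side. Mdh2 lies near 200 and Fh1 near 16, Dlst, Ogdh and Idh3b lie close together, and Idh3g and Suclg1 swap order between the groups.

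Citrate synthase, encoded by Cs, joins acetyl-CoA to oxaloacetate and is often used as a marker of mitochondrial content. Its levels were 272, 259, 273 and 279 CPM in the libraries labelled GFP and 291, 279, 291 and 295 CPM in those labelled OEIRF7. The ranges touched near 279 CPM but did not overlap before rounding. Cs rose 1.07-fold (log2 difference 0.09, SE 0.0331, 95% interval 0.02 to 0.16, edgeR adjusted p = 0.024). This call was lost without GFP replicate 2 (adjusted p = 0.076), without OEIRF7 replicate 1 (adjusted p = 0.061) and without OEIRF7 replicate 4 (adjusted p = 0.06 in edgeR). The gene lies at chr10:128337734-128362479 on the plus strand of GRCm38. Its near copy Csl shares 91.9% of 1522 aligned bases and had 4 counts in total over the 8 libraries.

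NAD-dependent isocitrate dehydrogenase is built from a catalytic alpha subunit and from beta and gamma subunits, the gamma subunit having a regulatory role, and here the RNAs of its subunits did not move one way. Idh3a, the alpha subunit (chr9:54586334-54604661, plus strand), had 78.9, 84.1, 84.6 and 85.4 CPM in the libraries labelled GFP and 95.0, 95.0, 96.4 and 94.5 CPM in those labelled OEIRF7. All libraries labelled OEIRF7 lay above all labelled GFP, and GFP replicate 1 was the lowest. Idh3a rose 1.14-fold, the largest difference of the 9 enzymes (log2 difference 0.19, SE 0.0358, 95% interval 0.12 to 0.27, edgeR adjusted p = 0.00029).

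Idh3b, the beta subunit (chr2:130279309-130284547, minus strand), had 68.4, 72.8, 72.2 and 71.2 CPM in the libraries labelled GFP and 74.5, 78.8, 79.6 and 78.1 CPM in those labelled OEIRF7. The groups again did not overlap, and Idh3b rose 1.09-fold (log2 difference 0.13, SE 0.0375, edgeR adjusted p = 0.0089). It shares 5 exon bases with Nop56 on the other strand, which had a log2 difference of 0.26 (edgeR adjusted p = 0.00031).

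Idh3g, the gamma subunit (chrX:73778963-73786897, minus strand), went the other way, with 49.6, 43.5, 45.7 and 44.2 CPM in the libraries labelled GFP and 40.6, 41.3, 39.0 and 41.3 CPM in those labelled OEIRF7. GFP replicate 1 was highest and the groups did not overlap. Idh3g fell to 0.886-fold (log2 difference -0.17, SE 0.0482, 95% interval -0.28 to -0.07, edgeR adjusted p = 0.0062), and was the enzyme of the 9 that was called lower. Its start lies 131 bases from that of Ssr4, which is read in the opposite direction and had a log2 difference of 0.14 (edgeR adjusted p = 0.019).

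**Figure D3:**
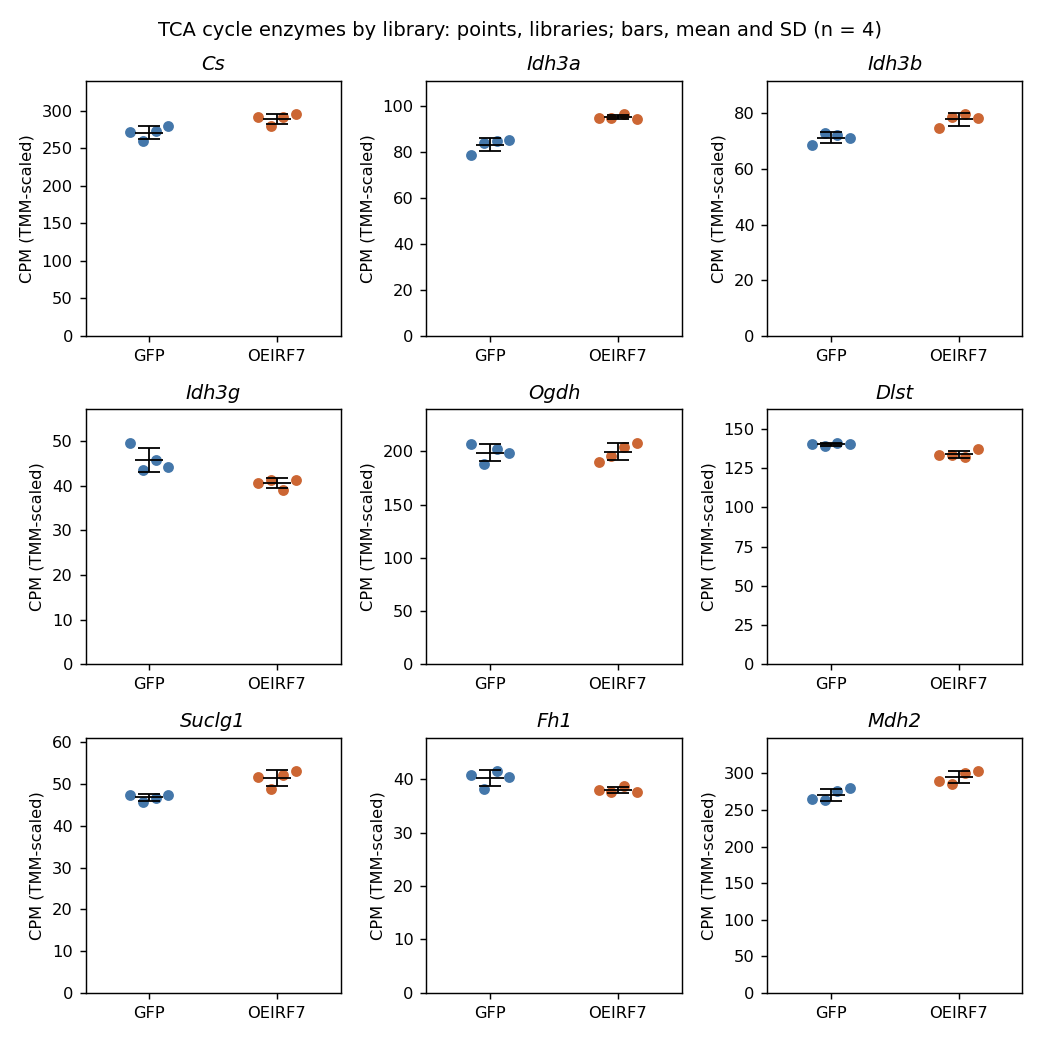
TMM-scaled CPM of each of the 9 enzymes (y axes from 0, 1 panel per enzyme) in the libraries labelled GFP and OEIRF7, with 1 point per library and the group mean ± SD. Idh3a, Idh3b, Suclg1, Mdh2 and Cs sit higher in the libraries labelled OEIRF7, Idh3g sits lower, and Ogdh overlaps.

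Ratios of FPKM within a library do not depend on its depth. The ratio of Idh3a to Idh3g was 1.12 in the libraries labelled GFP and 1.47 in those labelled OEIRF7 (geometric means), and that of Idh3b to Idh3g was 1.29 and 1.64. On the log2 scale these ratios differed by 0.40 and 0.34, and the groups did not overlap for either (exact two-sided permutation p = 0.0286 each). The ratio of Idh3a to Idh3b moved by 0.06 on the log2 scale, from -0.21 ± 0.00989 to -0.16 ± 0.0545 (exact permutation p = 0.0286). Of 13 ratios compared, 7 had this p, the smallest that 4 against 4 libraries can give, which became 0.0531 after adjustment over the 13, so 0 ratios passed an adjusted p of 0.05 by the exact permutation test. With ratios of counts in place of FPKM, 8 of the 13 ratios passed (exact permutation, adjusted p = 0.0464 each), so this call depends on the unit.

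The NADP-dependent mitochondrial enzyme Idh2, which carries out the same conversion with another cofactor and can run in reverse, fell much further than any of the 9 enzymes. Its levels were 14.9, 12.9, 13.7 and 13.1 CPM in the libraries labelled GFP and 6.75, 6.17, 6.99 and 7.22 CPM in those labelled OEIRF7. The highest library labelled OEIRF7 lay far below the lowest labelled GFP, and Idh2 fell to 0.495-fold (log2 difference -1.01, SE 0.0816, edgeR adjusted p = 7.4e-08). The FPKM ratio of Idh2 to Idh3a was 0.205 in the libraries labelled GFP and 0.0867 in those labelled OEIRF7 (exact permutation p = 0.0286, 0.0531 adjusted over the 13 ratios).

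**Figure D4:**
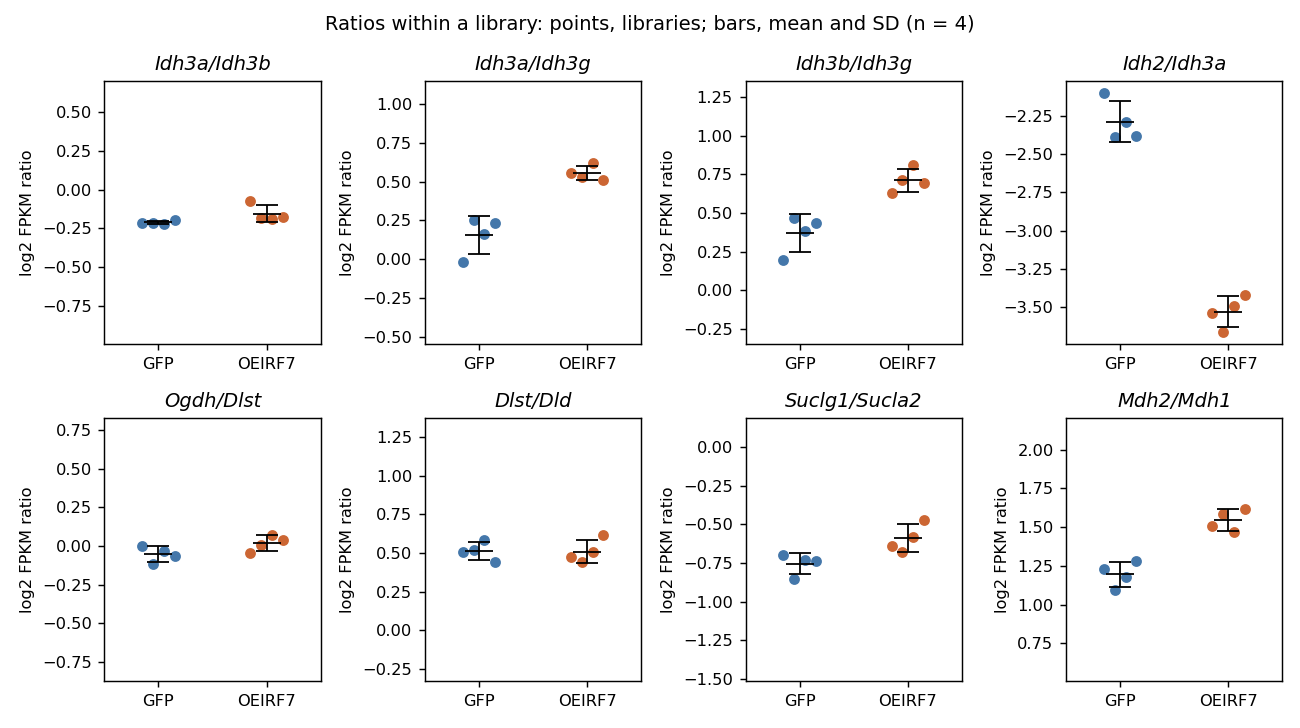
Log2 ratios of FPKM within each library (y axes of equal span, 1 point per library) for 8 of the 13 pairs, with the group mean ± SD. The ratios of Idh3a and Idh3b to Idh3g and of Mdh2 to Mdh1 lie higher in the libraries labelled OEIRF7, that of Idh2 to Idh3a lies lower, and those of Ogdh to Dlst and of Dlst to Dld overlap.

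The 2-oxoglutarate dehydrogenase complex turns 2-oxoglutarate into succinyl-CoA, and neither of its measured members among the 9 passed the test. Ogdh, its decarboxylating E1 subunit (chr11:6291633-6356642, plus strand), had 207, 188, 202 and 198 CPM in the libraries labelled GFP and 190, 196, 204 and 208 CPM in those labelled OEIRF7. The groups overlapped, and the log2 difference was 0.0073 with a 95% interval of -0.08 to 0.09 (edgeR adjusted p = 0.89). Dlst, the E2 subunit that carries the succinyl group (chr12:85110833-85134845, plus strand), had 140, 139, 141 and 140 CPM in the libraries labelled GFP and 133, 133, 132 and 137 CPM in those labelled OEIRF7. The groups did not overlap, with a log2 difference of -0.07 (95% interval -0.13 to -0.0018, edgeR adjusted p = 0.072, exact permutation p = 0.0286). The start of Dlst lies 74 bases from that of Prox2, which is read in the opposite direction. Prox2 had a log2 difference of -0.31 (edgeR adjusted p = 0.21).

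The E3 subunit Dld, which the pyruvate dehydrogenase complex shares, averaged 91.5 ± 3.50 and 87.5 ± 3.24 CPM (edgeR adjusted p = 0.19). The ratios of Ogdh to Dlst, of Ogdh to Dld and of Dlst to Dld had log2 differences of 0.07, 0.07 and -0.0043 (exact permutation p = 0.114, 0.371 and 0.886). Ogdhl, a paralog of Ogdh, had 40.9, 38.3, 36.1 and 42.0 CPM in the libraries labelled GFP and 22.4, 21.0, 16.9 and 23.1 CPM in those labelled OEIRF7. It fell to 0.531-fold (log2 difference -0.91, SE 0.0825, edgeR adjusted p = 2.4e-07), from 10.5 to 5.66 FPKM, beside 49.0 and 50.1 FPKM for Ogdh.

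Succinyl-CoA synthetase pairs the alpha subunit Suclg1 with a beta subunit that sets the nucleotide, Suclg2 for GTP and Sucla2 for ATP. Suclg1 (chr6:73248382-73276911, plus strand) had 47.4, 45.8, 46.7 and 47.4 CPM in the libraries labelled GFP and 51.8, 48.8, 52.1 and 53.1 CPM in those labelled OEIRF7. OEIRF7 replicate 2 was the lowest of its group and still lay above every library labelled GFP, and Suclg1 rose 1.10-fold (log2 difference 0.14, SE 0.0404, edgeR adjusted p = 0.0099). Suclg2 rose 1.09-fold, from 59.6 ± 1.33 to 64.8 ± 1.60 CPM (edgeR adjusted p = 0.012), and was the gene of the other TCA list called higher. Sucla2 averaged 94.1 ± 3.16 and 92.1 ± 2.34 CPM (edgeR adjusted p = 0.51). The ratio of Suclg1 to Sucla2 differed by 0.16 and that of Suclg2 to Sucla2 by 0.15 on the log2 scale (exact permutation p = 0.0286 each, 0.0531 adjusted), while that of Suclg1 to Suclg2 differed by 0.01 (exact permutation p = 0.8).

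Succinate dehydrogenase, which is also complex II of the respiratory chain, had no subunit past the test. The log2 differences were -0.07 for Sdha (edgeR adjusted p = 0.059), 0.10 for Sdhb (0.063), 0.04 for Sdhc (0.55) and 0.06 for Sdhd (0.2). Fh1, fumarase, which hydrates fumarate to malate (chr1:175600374-175625635, minus strand), had 40.8, 38.2, 41.5 and 40.5 CPM in the libraries labelled GFP and 38.0, 37.7, 38.7 and 37.6 CPM in those labelled OEIRF7. The groups overlapped, since GFP replicate 2 lay below OEIRF7 replicate 3, and the log2 difference was -0.08 (95% interval -0.17 to 0.0099, edgeR adjusted p = 0.11, exact permutation p = 0.0571).

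Mdh2 closes the cycle by oxidising malate to oxaloacetate, and its cytosolic counterpart Mdh1 takes part with it in the malate-aspartate shuttle. Mdh2 (chr5:135778480-135790398, plus strand) had 265, 263, 276 and 280 CPM in the libraries labelled GFP and 289, 286, 301 and 303 CPM in those labelled OEIRF7. The groups did not overlap, and Mdh2 rose 1.09-fold (log2 difference 0.12, SE 0.0341, edgeR adjusted p = 0.0067). Mdh1 fell to 0.849-fold, from 124 ± 5.64 to 105 ± 2.34 CPM (edgeR adjusted p = 0.0001). The FPKM ratio of Mdh2 to Mdh1 was 2.29 and 2.92 (exact permutation p = 0.0286, 0.0531 adjusted).

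**Figure D5:**
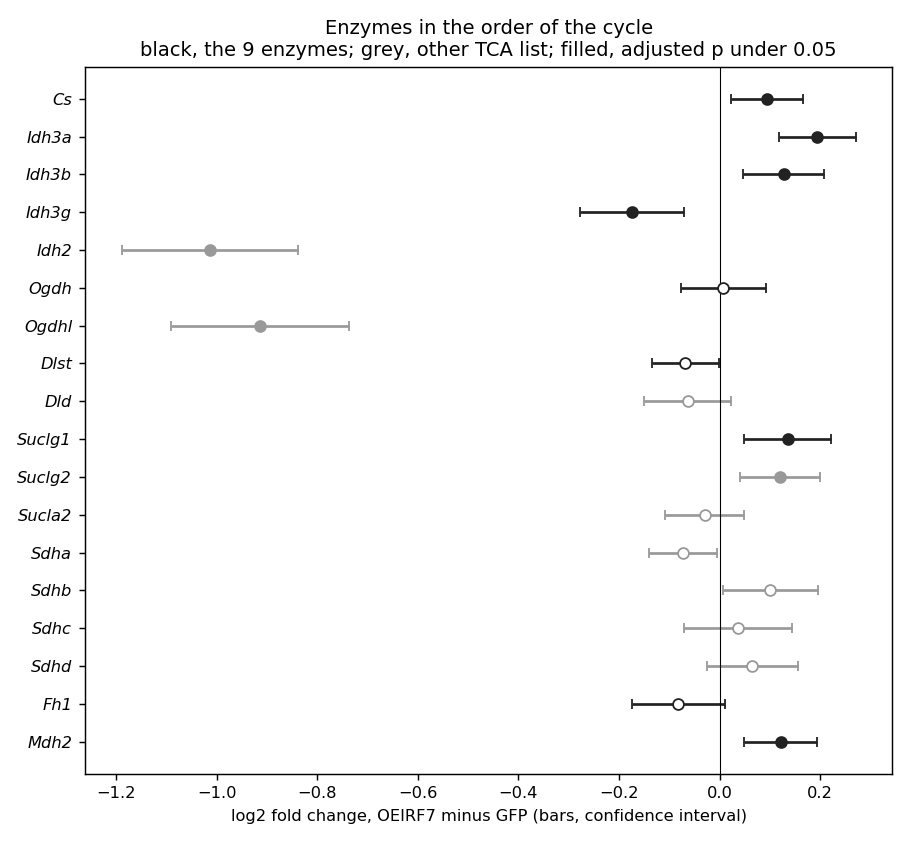
Log2 differences (OEIRF7 minus GFP) with 95% intervals for the TCA cycle enzymes in the order of the cycle, with the 9 enzymes in black, 9 genes of the other TCA list in grey, and filled points for an edgeR adjusted p under 0.05. Idh2 (-1.01) and Ogdhl (-0.91) stand apart, and the intervals of all other genes shown lie between -0.28 and 0.27.

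Promoter sequences were looked up because genes of the cycle moved in both directions. RefSeq windows of 250 bases before to 50 bases after the start (GRCm38.p6) were found for 8 of the 9 enzymes, all but Idh3a, and Ogdh had 6 windows. They were searched on both strands for the NRF1 motif GCGCANGCG, the ERR motif AAGGTCA, the ETS motif CCGGAAG, the GC box GGGCGG, the CRE half-site TGACGT, the E-box CACGTG and an interferon-type motif GAAANNGAA. The ETS motif was found for Idh3b, Idh3g and Dlst, and for 9.93% of all 27025 genes with a window. The CRE half-site was found for Idh3g, Ogdh, Suclg1, Fh1 and Mdh2, and for 8.37% of genes, and the GC box for Cs, Ogdh, Dlst, Fh1 and Mdh2, and for 38.2%. NRF1 (7.03% of genes), ERR (5.38%) and E-box (8.09%) motifs were found for Ogdh, and the interferon-type motif (9.76%) for Suclg1. With 6 windows Ogdh had more sequence to search than the other enzymes, some of it in windows that overlap. The interferon-type motif is shorter than the interferon response element that the paper gives, and the match in Suclg1 does not extend to that element. The GC content of the windows ran from 50.3% (Idh3b) to 65.7% (Dlst), beside a median of 52.7% over all windows. It was not matched in the shares over all genes. Matches are descriptions of letters, not binding sites. The windows below are shown because the ETS motif occurs in a gene that rose and a gene that fell, because the CRE half-site likewise occurs in genes that rose (Mdh2 and Suclg1), in the gene that fell (Idh3g, with 2 matches) and in genes not called (Ogdh and Fh1), and because Suclg1 holds the interferon-type motif. Capitals mark the match on either strand, and each line reads 5′ to 3′ on the strand of the gene.
Idh3b, ETS, chr2:130284438-130284467, minus strand: gaccgcgctcgCTTCCGGcgtcacttcccc
Idh3g, ETS, chrX:73786983-73787012, minus strand: tgctctaggcaCCGGAAGggggcgtaagaa
Dlst, ETS, chr12:85110823-85110852, plus strand: ggccggtctcaCTTCCGGttgctgccgggc
Mdh2, CRE half-site, chr5:135778510-135778539, plus strand: cggagagaatcgTGACGTcaggcctcgctc
Idh3g, CRE half-site, chrX:73787080-73787109, minus strand: cgctggcggcacTGACGTgtccgcttccct
Suclg1, CRE half-site, chr6:73248491-73248520, plus strand: tttgcttttcaaACGTCAtccttcttgttc
Suclg1, interferon-type motif, chr6:73248335-73248364, plus strand: ttccaaccccTTCCCTTTCagcacgctgct
Measured from the RefSeq start, the ETS matches begin at position -5 in Idh3b, -104 in Idh3g and 1 in Dlst.

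Genes that feed or drain the cycle were counted from further lists, and the counts stand beside the 58.9% of all tested genes that were called (29.0% higher and 29.9% lower). Of the other TCA cycle enzymes 10 were tested, with 1 higher, 2 lower and a median log2 difference of -0.0028. Of 13 genes of pyruvate entry 2 were higher and 5 lower (median 0.07). The largest rise was in Pdp1, a phosphatase that activates pyruvate dehydrogenase (1.52-fold, edgeR adjusted p = 1.5e-05). The largest fall was in Pdk4, a kinase that inhibits pyruvate dehydrogenase (0.579-fold, edgeR adjusted p = 2.3e-06). Of the other kinases of that family, named after their values were seen, Pdk1 rose 1.3-fold (edgeR adjusted p = 3e-05). Pdk2 and Pdk3 fell to 0.695-fold and 0.777-fold (edgeR adjusted p = 0.0011 and 1.2e-05). The pyruvate dehydrogenase subunits Pdha1 and Dlat, named after their values were seen, fell to 0.686-fold and 0.592-fold (edgeR adjusted p = 3.6e-09 and 8.4e-10). Pdhb and Pdhx, of the same complex, did not pass the test (1.05-fold and 1.03-fold, edgeR adjusted p = 0.17 and 0.53). Of 15 genes of anaplerosis and exit 4 were higher and 9 lower (median -0.22), and the largest fall was that of Me3, a mitochondrial malic enzyme, from 4.09 to 1.66 CPM (edgeR adjusted p = 1.3e-05). The largest rise was that of Acod1, which makes itaconate, from 0.473 to 0.96 CPM (edgeR adjusted p = 0.012), a low level. Of 5 cytosolic counterparts 3 were lower, with Mdh1 the largest fall, and the other 2 did not pass the test.

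Markers of other cell types were counted too, again beside 58.9% of all tested genes called. Macrophage markers summed to 281 to 335 CPM in the libraries labelled GFP and 341 to 384 CPM in those labelled OEIRF7, with 4 of 9 higher and Mrc1 the largest rise, and none at 0 in all libraries. Mural markers summed to 68.9 to 76.0 CPM and 79.0 to 98.8 CPM, with 2 of 5 tested higher, led by Cspg4, and 2 lower, led by Notch3. Endothelial markers summed to 222 to 234 CPM and 226 to 256 CPM, ranges that overlap, with 4 of 8 higher, led by Kdr, and Cdh5 lower. Of the fibroblast markers 2 were higher, led by Pdgfra, and 5 lower, led by Tcf21. The part of these markers in the values of the TCA cycle enzymes was not tested.

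The genes outside the lists whose log2 CPM over the 8 libraries lay closest to the mean pattern of the 9 enzymes were Rab5c, Slc39a7, Ube3c, Galnt10 and Eef1g, with root mean square differences of 0.0116 to 0.0169 among 8799 eligible genes. The enzymes themselves lay 0.0336 (Cs) to 0.119 (Idh3g) from their own mean. Because the 5 genes were picked as the closest of the 8799, their smaller distances follow from that choice.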

How the data were processed

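RNA-seq of 8 libraries was analysed. Raw counts per gene were deposited by the authors, who had trimmed reads, aligned them to GRCm38 (HISAT2) and run HTSeq-count. They also deposited FPKM values from Cufflinks, normalized for length and depth. Their group means, fold changes, p-values and FDR in the same table were not used. The strand setting of counting and the tool versions are not given in the sources used here, so values of genes that share bases across strands are uncertain. The labels and the paper name different extraction and library kits.

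Counts were tested in R 4.3.3 with edgeR 4.0.16 (filterByExpr, TMM, glmQLFit and glmQLFTest, no covariates), with Benjamini-Hochberg adjustment over all 13533 tested genes. A prior count of 2 was added for log2 CPM. Ratios of FPKM and single enzymes were compared by exact two-sided permutation tests, whose smallest p is 0.0286. Alternatives were DESeq2 1.42.0, other scalings and filters, a replicate block, fits without each library in turn, and limma 3.58.1 on log2(FPKM + 1) or log2(FPKM + 0.1). Near copies were searched with blastn 2.17.0 (at least 90% identity over 200 bases). Gene coordinates are from GENCODE M21. The promoter windows follow RefSeq starts, which can differ, so a match before the RefSeq start can lie inside the gene span given.

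The enzymes and lists were chosen with earlier results of these data known. All 9 enzymes and the other TCA cycle enzymes are named, except 1 gene of that list that is counted but not reported here, and from every further list the largest rise and fall past the test. Overlapping neighbours, neighbours with divergent starts, near copies, and the genes of pyruvate entry other than Pdp1 and Pdk4 were named after their values were seen. On simulated data with 13445 genes, edgeR recovered 71 of 100 genes changed 1.2-fold and 100 of 100 changed 2-fold. Of its calls 8.56% were false, more than the adjusted p threshold of 0.05 aims for. Only these genes were changed there, whereas 58.9% of the tested genes were called in the data, a setting that was not simulated.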

Additional observations from a re-analysis of the deposited data

Results flagged for a closer look

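In 64 groups of 4 values tested for a sample far from the others (chance flags about 5% of groups), 2 stood apart. Sucla2, a beta subunit of succinyl-CoA synthetase, had 98.8 CPM in GFP replicate 2, beside 92.1 to 92.7 CPM in the other libraries labelled GFP. The log2 FPKM ratio of Idh3a to Idh3b was -0.075 in OEIRF7 replicate 1, beside -0.19 to -0.18 in the other libraries labelled OEIRF7. Their causes were not tested.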

How the results depend on the processing

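The counts of the 9 enzymes (5 higher, 1 lower, 0 past the fold threshold) held under DESeq2, other scalings and filters and both limma fits. Leaving out a library gave 4 to 5 higher, with Cs the call that was lost. With the replicate number as a block there were again 5 higher and 1 lower, with 8211 genes called in all instead of 7969. Same-numbered libraries correlated at 0.079 to 0.138, each above the largest correlation with another number (0.04 to 0.048). What same-numbered libraries share is not given in the labels and was not tested, and the main fit does not use the number. The other TCA cycle enzymes called higher were 2 instead of 1 without TMM, with at least 10 counts in every library and in both limma fits, and 1 to 2 when a library was left out, since Sdhb passed. Those called lower were 3 instead of 2 with DESeq2 (Sdha adjusted p = 0.049) and without OEIRF7 replicate 4 (Sdha adjusted p = 0.043 in edgeR). With counts in place of FPKM, 8 ratios instead of 0 had an adjusted p under 0.05 (0.0464). The sign of 3 uncalled genes turned. Ogdh ran from -0.020 to 0.030 when a library was left out, with -0.0043 and -0.014 among these values, Sdhc from -0.0019 to 0.075, and Sucla2 was 0.0005 in both limma fits. The causes were not tested. In simulated data 71 of 100 genes changed 1.2-fold were recovered, and smaller changes, such as those of the 9 enzymes, were not simulated.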

Other observations

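Of 14 genes for abundant mitochondrial proteins, 8 were higher and 1 was lower in the libraries labelled OEIRF7, with a median log2 difference of 0.11. Over all tested genes 29.0% were higher and 29.9% lower. Lonp1, a protease of the matrix, rose the most (1.33-fold, edgeR adjusted p = 5.6e-07), and Vdac2, a channel of the outer membrane, fell to 0.906-fold (edgeR adjusted p = 0.016). Of 13 regulators of mitochondrial biogenesis 5 were higher and 4 lower. Tfb2m, a mitochondrial transcription factor, fell to 0.603-fold (edgeR adjusted p = 1.4e-06), and Ppargc1a, a coactivator of mitochondrial genes, rose from 0.504 to 1.17 CPM (edgeR adjusted p = 0.0037), a low level. Of 9 cofactor and assembly genes 1 was higher, Sdhaf1 (1.40-fold, edgeR adjusted p = 0.00038), and 1 lower, Sdhaf4 (0.839-fold, edgeR adjusted p = 0.025), both assembly factors of succinate dehydrogenase.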
